A study of Mus musculus with 10 samples.

Results

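The 10 genes described here encode the slow forms of the contractile proteins of skeletal muscle and partners that are enriched in slow fibres: Myh7, Myl2, Myl3, Tnnt1, Tnni1, Tnnc1, Tpm3, Myoz2, Ankrd2 and Csrp3. They were taken by symbol, as all probe sets whose annotation names 1 of these genes alone. This gave 16 probe sets for 10 genes, of 18193 genes that have such a probe set on the array. Another 2 probe sets that name both Myh7 and Myh6 were set apart. RNA came from gastrocnemius muscle of 5 D257A mice and 5 WT mice, all males of 13 months, with 1 Affymetrix Mouse Genome 430 2.0 array per mouse and no pooling. D257A mice are homozygous in every cell for a knocked-in Polg allele, so that their mitochondrial DNA polymerase γ has lost its proofreading activity; WT mice carry the normal allele. The lines started on a mixed 129Sv, ICR and B6 background and were then backcrossed to C57Bl/6J for a few generations. The sample labels give the tissue as gastrocnemius, although 1 protocol line names cochlea.

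Adult limb muscle is a mosaic of slow fibres, which contract slowly and resist fatigue, and of fast fibres, which contract quickly and tire. Each type builds its sarcomeres, the repeating contractile units, from its own set of protein forms. Myosin heavy chain pulls on actin and is stabilised by an essential and a regulatory light chain, while troponin C, I and T and tropomyosin sit on the thin filament and let the pull begin when calcium is released. The Z-disc anchors the thin filaments and the giant protein titin, and carries proteins such as Csrp3 and Ankrd2 that also enter the nucleus and take part in the response to stretch. Mouse gastrocnemius is mainly a fast muscle, and most of the slow genes are also the forms used by the ventricle of the heart.

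The tissue label was checked against markers. All 10 markers of skeletal muscle fibres were bright enough to be tested, and 4 of 10 markers of the cochlea. Over the 10 mice the summed signal lay between 430478 and 569846 for the muscle markers and between 465 and 805 for the cochlea markers. Values are log2 of the probe set signal after each array was scaled to the same mean, and called means an adjusted p under 0.05 in limma. The trimmed mean of the deposited signals ran from 93.4 to 106 over the D257A arrays and from 94.5 to 129 over those of WT mice, and the number of arrays limits the precision. The median log2 signal after scaling was 6.36 ± 0.06 for D257A and 6.49 ± 0.05 for WT arrays (SD, n = 5 each; 2-sided exact permutation p = 0.0238). Centring each array on that median raised every fold change by 0.13. The WT mouse 1-13M stood apart: without it, 1648 probe sets were called higher and 1780 lower, against 819 and 843 with it, so results are also given without it. Probe sets split into 1599 higher and 418 lower with median centring and into 356 higher and 856 lower without scaling.

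Of the slow fibre genes, Ankrd2 and Csrp3 fell in D257A mice, by 1.15 and 1.33 on the log2 scale, and no other member was called. All 16 member probe sets were bright enough to be tested; 2 were called lower and 0 higher. Of the 22518 probe sets tested, 7.38% were called, 3.74% lower and 3.64% higher. Without WT mouse 1-13M, where 7.9% of all probe sets were called lower and 7.32% higher, the members gave 2 lower and 1 higher, the brightest Tpm3 probe set. The same 2 were the only member probe sets whose D257A and WT signals did not overlap, against 7.71% of all tested probe sets. An unadjusted p under 0.05 was found for 6 member probe sets, 4 of them higher in D257A mice, against 23.6% of all tested. By their brightest probe set, 7 of the 10 genes had a positive and 3 a negative log2 fold change, with a median of 0.20, beside a median of -0.010 over all 11216 tested genes. For the 8 members other than Ankrd2 and Csrp3, a split made after their values were seen, the median was 0.34 and 7 of the 8 were positive. From the arrays alone, fewer slow fibres and less of an RNA in each fibre cannot be told apart. In this muscle at the same age, the paper found no significant genotype difference in the number of slow (type I) fibres. It described a trend to a lower share of type I fibres in D257A mice. The diameter of type I fibres was smaller in D257A mice.

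**Figure D1:**
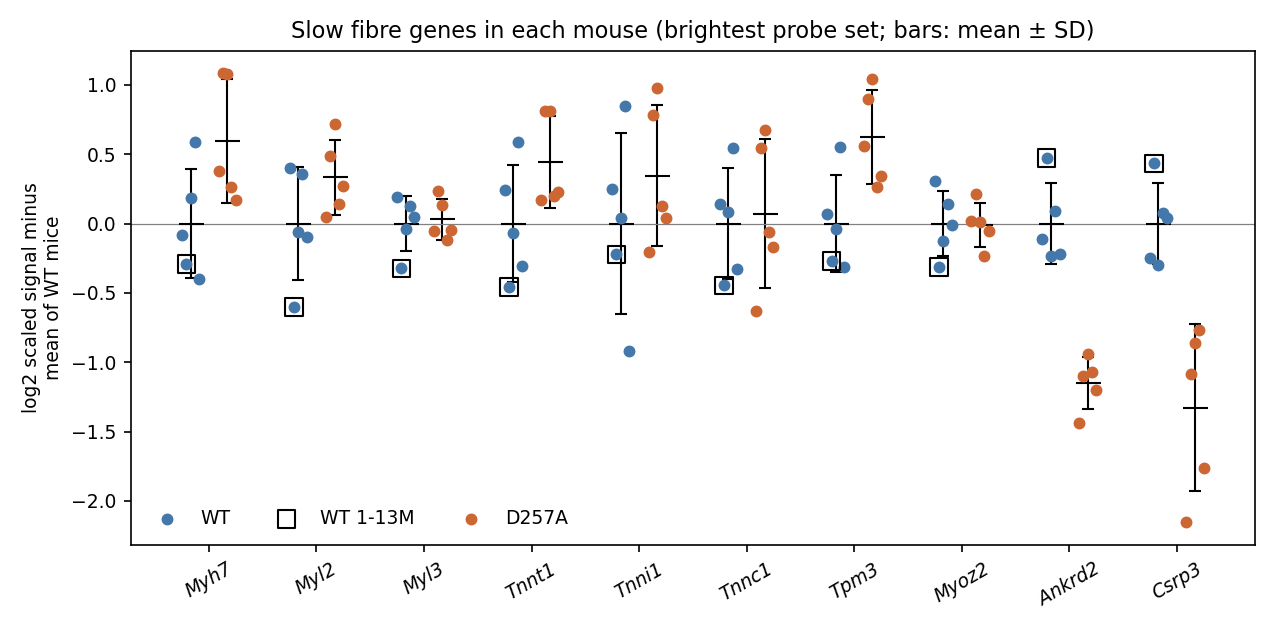
Log2 scaled signal of each slow fibre gene (brightest probe set) in each of the 10 mice, minus the mean of the 5 WT mice. Blue points are WT mice, orange points D257A mice, and bars the mean ± SD; the square marks WT mouse 1-13M. The 5 D257A mice sit below every WT mouse for Ankrd2 and Csrp3, and the genotypes overlap for the other 8 genes.

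Ankrd2 encodes an ankyrin repeat protein of the titin-bound I-band region that is raised by stretch and is enriched in slow fibres. Its scaled signals were 7857, 9929, 11097, 10137 and 9284 in D257A mice 2-17M, 2-21M, 2-25M, 2-27M and 2-30M. In WT mice 1-12M, 1-13M, 2-3M, 2-32M and 3-18M they were 19670, 29526, 18131, 22701 and 18331. The lowest WT mouse was thus well above the highest D257A mouse. On the log2 scale the mean was 13.23 ± 0.19 for D257A and 14.38 ± 0.29 for WT mice, a 2.22-fold lower level (log2 fold change -1.15, SE 0.14, adjusted p = 4.69e-04). Ankrd2 was called under each of the 20 alternative settings, with log2 fold changes from -1.23 to -1.02. Without WT mouse 1-13M, which had the highest WT signal, the difference was -1.03 (adjusted p = 3.52e-05).

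Csrp3 encodes muscle LIM protein, a Z-disc protein that binds telethonin and α-actinin and is needed for normal heart muscle structure. It lies on chromosome 7, the chromosome of Polg, as does Tnnt1, which was not called. Strain sequence kept beside the knocked-in allele cannot be told apart from the allele, and its part was not tested. Its scaled signals were 6179, 12942, 15172, 16115 and 8099 in D257A mice 2-17M, 2-21M, 2-25M, 2-27M and 2-30M. The WT mice 1-12M, 1-13M, 2-3M, 2-32M and 3-18M had 23123, 37166, 22349, 29048 and 28218. The groups did not overlap, and the D257A mice spread over a wider log2 range than the WT mice. On the log2 scale the mean was 13.42 ± 0.60 for D257A and 14.75 ± 0.30 for WT mice, a 2.51-fold lower level (log2 fold change -1.33, SE 0.24, adjusted p = 0.00497). Without WT mouse 1-13M, again the WT mouse with the highest signal, it was -1.22 (adjusted p = 0.00302). With a block for the first digit of each mouse's number, whose meaning is not stated, the difference was -1.22 and the call was lost (adjusted p = 0.0779).

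The same mice were at the extremes for both genes. D257A mouse 2-17M was the lowest of all 10 mice for Ankrd2 and for Csrp3, followed by 2-30M, while 1-13M was the highest and 2-3M the lowest of the WT mice for both. All D257A mice have numbers that begin with 2, as do the WT mice 2-3M and 2-32M. The block for the first digit therefore gives the same fold changes as these mice alone, and differs only in its error and p. Among the mice numbered 2 alone, Ankrd2 was lower by a log2 fold change of -1.08 (adjusted p = 0.0015) and Csrp3 by -1.22 (adjusted p = 0.0408).

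Bases before the start of these 2 genes, and of Myh7 and Tnnt1 for comparison with members that were not called, are shown because the first 2 fell while the other 2 did not pass the test. They are from the RefSeq annotation of GRCm38.p6 (Ankrd2 chr19:42035777-42035916, plus strand; Csrp3 chr7:48848052-48848301, minus strand; Myh7 chr14:54994627-54994876, minus strand; Tnnt1 chr7:4515976-4516225, minus strand), written 5′ to 3′ on the strand of the gene. Each is the 250 bases before the listed start, cut for Ankrd2 to the 140 that lie before its outermost annotated transcript. Capitals mark E-boxes, the CANNTG motif bound by factors of the MyoD family, and MCAT elements, CATTCC on either strand, bound by TEAD factors; no E-box overlaps an MCAT element in them.
Ankrd2: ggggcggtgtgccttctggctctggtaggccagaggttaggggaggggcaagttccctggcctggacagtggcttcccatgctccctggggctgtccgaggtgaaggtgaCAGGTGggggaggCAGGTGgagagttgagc
Csrp3: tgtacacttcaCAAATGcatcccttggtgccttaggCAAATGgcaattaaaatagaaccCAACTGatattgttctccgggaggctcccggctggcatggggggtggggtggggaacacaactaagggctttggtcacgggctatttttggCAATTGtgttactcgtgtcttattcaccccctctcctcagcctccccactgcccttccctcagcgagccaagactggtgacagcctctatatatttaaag
Myh7: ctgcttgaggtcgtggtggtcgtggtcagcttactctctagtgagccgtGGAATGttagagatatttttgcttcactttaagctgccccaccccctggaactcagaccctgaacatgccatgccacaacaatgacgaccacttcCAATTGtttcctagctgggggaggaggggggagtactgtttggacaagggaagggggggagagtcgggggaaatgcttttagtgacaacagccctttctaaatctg
Tnnt1: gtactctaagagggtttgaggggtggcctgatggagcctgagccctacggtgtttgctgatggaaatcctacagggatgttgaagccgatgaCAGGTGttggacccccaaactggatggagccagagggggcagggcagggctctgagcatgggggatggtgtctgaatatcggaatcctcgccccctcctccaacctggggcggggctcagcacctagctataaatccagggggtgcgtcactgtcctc

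An E-box was found in the full window of 250 bases for all 10 members, as in 66% of the 27025 promoters in the annotation table. The whole window of Tnni1, and the end of those of Ankrd2 and Myoz2, lies inside the gene's outermost annotated transcript. Ankrd2 held 3 and Csrp3 held 4 E-boxes, and neither held an MCAT element. An MCAT element stood before Myh7, Myl3 and Tnnc1, as in 12.6% of all promoters. Of the motifs searched by name on both strands, the MEF2 element occurred before Myoz2 and in 3.01% of all promoters, and the CArG box, bound by serum response factor, before Myl3 and in 1.4% of all promoters. The letters TATAAA, on the gene's strand or its complement, were found before Tnnt1 and Ankrd2 and in 13% of all promoters. Those of Ankrd2, and 1 of its E-boxes, lie in the part cut from the sequence above. A match is a description of the letters in this window.

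Myh7 encodes the slow, or β, myosin heavy chain, the motor of slow fibres. Its scaled signals were 10950, 17825, 17758, 10070 and 9482 in D257A mice 2-17M, 2-21M, 2-25M, 2-27M and 2-30M. They were 7947, 6867, 9568, 12627 and 6387 in WT mice 1-12M, 1-13M, 2-3M, 2-32M and 3-18M. Only 2 D257A mice, 2-21M and 2-25M, were above the highest WT mouse, and the groups overlapped. The log2 fold change was 0.59 with a 95% interval from 0.13 to 1.06, and it did not pass the test (adjusted p = 0.109). Without WT mouse 1-13M it was 0.52 (adjusted p = 0.117), and among the mice numbered 2 alone it was 0.21. A probe set that names both Myh7 and Myh6, the α myosin heavy chain of the atrium and adult mouse heart, had a log2 fold change of 0.93 (adjusted p = 0.0719), and its deviations followed those of the Myh7 probe set (r = 0.954 over 10 mice). The other probe set that names both was too dim to be tested, with a mean log2 signal of 5.39. Its log2 fold change was 0.18 and its r with the Myh7 probe set 0.271.

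Myl2 encodes the slow regulatory light chain. Its signals lay between 22827 and 36208 in D257A mice and between 14530 and 29037 in WT mice, and the log2 fold change of 0.33, with an interval from -0.04 to 0.71, did not pass (adjusted p = 0.276). The low end of the WT range was mouse 1-13M, without which the difference was 0.18. Myl3 encodes the slow essential light chain and had 3 probe sets, none of which was called. The brightest, whose letters s_at mark probes that can match more than 1 transcript or gene, had a log2 fold change of 0.03 with an interval from -0.20 to 0.26 (adjusted p = 0.897), which turned to -0.04 without scaling and with quantile normalization. The other 2 had -0.23 and -0.09, the latter turning to 0.04 with median centring.

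Tnnt1 encodes slow troponin T, which ties the troponin complex to tropomyosin. Its signals were 8132, 12651, 12656, 8284 and 8479 in D257A mice 2-17M, 2-21M, 2-25M, 2-27M and 2-30M, and 8542, 5262, 6903, 10859 and 5853 in WT mice 1-12M, 1-13M, 2-3M, 2-32M and 3-18M. The same 2 D257A mice as for Myh7 lay above all WT mice, and 3 lay within the WT range. The log2 fold change of 0.44, with an interval from 0.02 to 0.86, did not pass (adjusted p = 0.188). It was 0.33 without WT mouse 1-13M. Tnni1, slow troponin I, the inhibitory subunit, had a log2 fold change of 0.34 with the wide interval from -0.28 to 0.97 (adjusted p = 0.511), and its WT signals alone ran from 2048 in mouse 3-18M to 6998 in mouse 2-32M. Among the mice numbered 2 alone it was -0.10. Tnnc1 encodes the calcium-binding troponin C of slow and heart muscle. Its log2 fold change was 0.07 with an interval from -0.44 to 0.58 (adjusted p = 0.891), and it was -0.0043 without scaling and -0.24 among the mice numbered 2.

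Tpm3 encodes the slow α-tropomyosin of muscle and, through other promoters and exons, shorter tropomyosins of the cytoskeleton, and its 5 probe sets did not give 1 answer. The brightest had signals of 11504, 14557, 16058, 9373 and 9929 in D257A mice 2-17M, 2-21M, 2-25M, 2-27M and 2-30M, and of 8192, 6471, 7612, 11466 and 6293 in WT mice 1-12M, 1-13M, 2-3M, 2-32M and 3-18M. Here 3 D257A mice lay above all WT mice and the other 2 lay within the WT range. Its log2 fold change was 0.62, with an interval from 0.24 to 1.01, and lay at the edge of the threshold (adjusted p = 0.0508). It passed under 6 of the 20 alternatives, among them median centring (0.75, adjusted p = 0.0232) and leaving out WT mouse 2-32M (0.76, adjusted p = 0.0212) or 1-13M (0.55, adjusted p = 0.0478), and among the mice numbered 2 alone it was 0.36 (adjusted p = 0.323).

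The second Tpm3 probe set had a log2 fold change of 0.49 (adjusted p = 0.136), and its deviations from the genotype mean followed those of the brightest (r = 0.929 over 10 mice). The other 3, with mean log2 signals of 9.84, 7.40 and 6.62, had log2 fold changes of 0.18, -0.05 and -0.88, none of them called, and r with the brightest between 0.058 and 0.226. The difference of -0.05 turned to 0.09 with median centring and to 0.02 with quantile normalization. That of -0.88 was -0.39 without D257A mouse 2-30M, whose signal was only 18.7, and -0.58 with an offset of 32. Which Tpm3 transcripts each probe set detects was not tested. Myoz2 encodes calsarcin-1, a Z-disc protein of slow fibres and heart that binds calcineurin. It stood at a log2 fold change of -0.01 with an interval from -0.26 to 0.24 (adjusted p = 0.973), and at 0.12 with median centring.

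**Figure D2:**
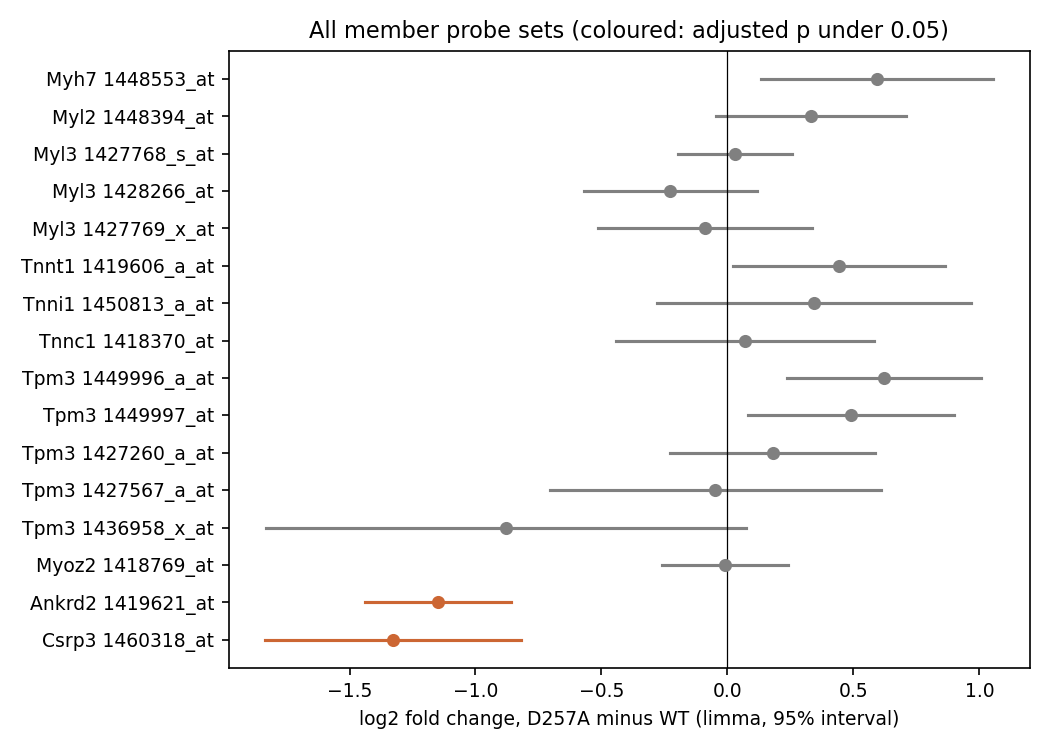
Log2 fold change, D257A minus WT, with its 95% interval from limma for each of the 16 member probe sets, named by gene and array identifier; orange marks an adjusted p under 0.05. Ankrd2 (-1.15) and Csrp3 (-1.33) are called, and the 5 probe sets of Tpm3 run from -0.88 to 0.62.

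Slow genes were next set against their fast counterparts in the same array, which asks whether the slow form moved against the fast form of the same protein. Over 9 such pairs the log2 ratio of slow to fast differed between genotypes by -0.09 to 0.59, and 0 pairs had an exact permutation p under 0.05, unadjusted; 5 mice against 5 cannot give a p below 0.00794. The ratio of Tpm3 to Tpm1 was higher in D257A mice by 0.57 (2-sided exact permutation p = 0.0556; 2 of 5 D257A mice above all WT mice), that of Myh7 to Myh4, the IIB heavy chain, by 0.59 (exact p = 0.0952) and to Myh2, the IIA heavy chain, by 0.48 (exact p = 0.167). With the mean of each gene's tested probe sets, Tpm3 against Tpm1 gave only 0.06 (exact p = 0.833). Tnnt1 against Tnnt3 gave 0.36 (exact p = 0.151), Tnni1 against Tnni2 0.34 (exact p = 0.540) and Myl2 against Mylpf 0.18 (exact p = 0.373). For Myl3 against Myl1, Tnnc1 against Tnnc2 and Myoz2 against Myoz1 the differences were 0.0051, 0.04 and -0.09, with exact p of 0.984, 0.913 and 0.421.

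WT mouse 2-32M carried the highest ratio of the WT mice in 8 of the 9 pairs. Without it, the pairs Myh7 with Myh4 (0.77, exact p = 0.0317), Tnnt1 with Tnnt3 (0.54, exact p = 0.0159) and Tpm3 with Tpm1 (0.76, exact p = 0.0159) passed 0.05 unadjusted. Leaving out the highest WT mouse can only widen these differences, so no conclusion is drawn from these p. With other mice left out, the exact p of these pairs ran up to 0.19, 0.302 and 0.111, in that order. Among the mice numbered 2 alone, where 2-32M is 1 of 2 WT mice, the differences of 6 pairs were below 0, 5 of them above 0 over all mice, from -0.39 for Tnnc1 with Tnnc2 to -0.0051 for Myh7 with Myh2. The 9 fast partners had log2 fold changes from 0.0038 for Tnni2 to 0.16 for Mylpf, and none was called; among the mice numbered 2 alone, Mylpf was called higher (0.23, adjusted p = 0.0368). Those of Myh4, Myl1, Tnni2, Tnnc2 and Tpm1 turned below 0 without scaling and with quantile normalization, and that of Myoz1 with quantile normalization. Their signals lay between 47.8% and 100% of the highest signal of each array, and those of the members between 2.97% and 65.8%; the part of the upper end of the scale in the fast values was not tested.

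**Figure D3:**
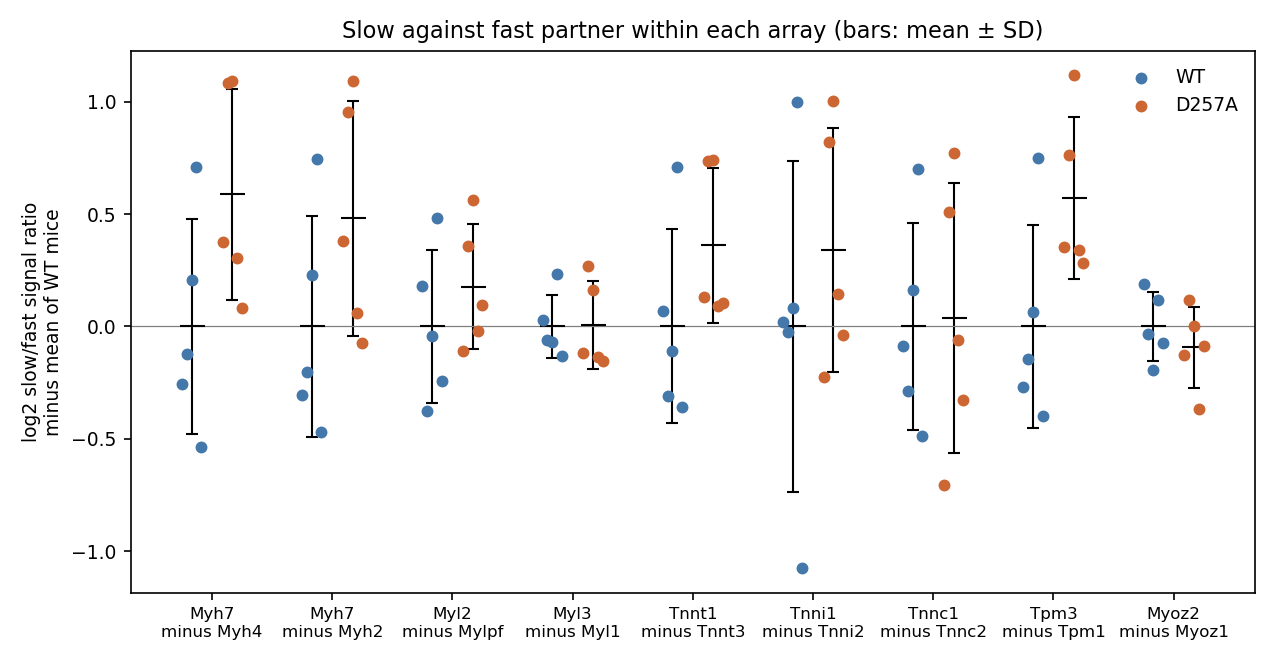
Log2 ratio of the slow to the fast member of each of 9 pairs in each mouse, minus the mean of the WT mice; blue points are WT, orange points D257A, and bars the mean ± SD. The genotypes overlap in all 9 pairs, and the widest mean difference is that of Myh7 with Myh4 (0.59).

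Among mice of 1 genotype, most of the slow genes varied together. Deviations from the genotype mean were correlated over the 10 mice as a description; all points share an array and its scaling. Among the 8 members other than Ankrd2 and Csrp3, the 28 pairs had a median r of 0.83, from 0.45 to 0.95, and 0.81 without WT mouse 1-13M. D257A mice 2-21M and 2-25M had the highest 2 D257A signals of Myh7, Myl2, Myl3, Tnnt1, Tnni1, Tnnc1 and Tpm3, and 2-32M the highest WT signal of Myh7, Tnnt1, Tnni1, Tnnc1 and Tpm3. With Myh7, r was 0.947 for Tpm3, 0.894 for Tnnt1, 0.888 for Tnni1, 0.875 for Tnnc1, 0.676 for Myl2, 0.635 for Myl3 and 0.490 for Myoz2. The median r with Myh7 over all tested genes was 0.008. Above 0.8 were 22 genes, or 0.196%, counting Myh7 itself and 4 other members.

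Ankrd2 and Csrp3 went with each other (r = 0.77) and less with the rest: their r with the other 8 members had a median of 0.13, from -0.37 to 0.44. The r with the other 8 members rested on WT mouse 1-13M, which had the lowest WT signal of Myl2, Myl3, Tnnt1, Tnnc1 and Myoz2 and the highest of Ankrd2 and Csrp3. Without it, r between Ankrd2 and Csrp3 was 0.81 and that with the other members had a median of 0.46, from -0.11 to 0.88. The fast partners had r with Myh7 from -0.520 for Myh2 to 0.082 for Myoz1, and without WT mouse 1-13M from -0.845 for Myl1 to -0.401 for Tpm1, with Myoz1 at -0.436. Outside the members, the 10 genes whose deviations were most like those of Myh7 were Patj, Spsb3, Mettl17, Cdip1, Hs3st6, Dhx35, Rap1gap2, Tyw1, Gtf3c5 and Rbm19, with r from 0.962 down to 0.853, and none of them was called between the genotypes.

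**Figure D4:**
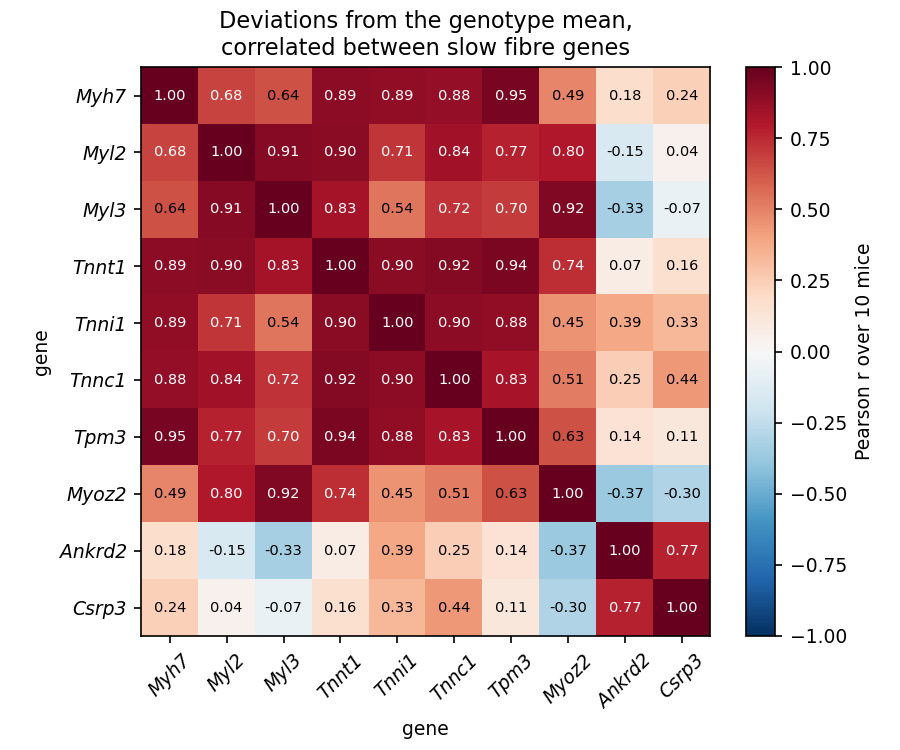
Pearson r between members over 10 mice, each value taken as the deviation from the mean of its genotype; red is positive, blue negative. Myh7, the light chains, troponins, Tpm3 and Myoz2 form a block of r from 0.45 to 0.95, and Ankrd2 and Csrp3 pair with each other (0.77).

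Other genes linked to slow fibres or to fibres rich in mitochondria, named the other slow fibre genes below, were set beside the members. Not all of them are particular to slow fibres, and the list was chosen with earlier results of these data known. Of 20 such genes that are not members, 19 were tested; 10 were called lower and 1 higher, with a median log2 fold change of -0.44, where 3.52% of tested genes were called lower and 3.71% higher. The 1 that rose was Sln, sarcolipin, an inhibitor of the SERCA calcium pump, by 3.16 on the log2 scale (adjusted p = 1.95e-05). Hspb7, a small heat shock protein of muscle, fell by 0.88 (adjusted p = 6.21e-04), Smtnl1, a smoothelin-like protein, by 1.17 (adjusted p = 6.91e-04) and Ckmt2, the sarcomeric mitochondrial creatine kinase, by 0.69 (adjusted p = 0.00205). Those called lower numbered 12 without WT mouse 1-13M, 6 without D257A mouse 2-17M and 5 with median centring. Over all tested probe sets, 1780, 449 and 418 were called lower in these settings, against 843 in the main fit. Atp2a2, the SERCA pump of slow fibres, stood at -0.01 (adjusted p = 0.978).

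Partners of Ankrd2, Csrp3 and Myoz2 at the Z-disc and on titin gave calls in both directions. Of 23 tested, 3 were called lower and 1 higher, with a median of -0.02. Over all tested genes, 3.52% were called lower and 3.71% higher. Actn2, the α-actinin of all fibre types, fell by 0.55 (adjusted p = 0.00349), Flnc, filamin C, by 0.94 (adjusted p = 0.0156) and Synpo2l by 0.87 (adjusted p = 0.0408), and Cavin4, a caveolar protein of muscle, rose by 0.39 (adjusted p = 0.0287). The nearest relatives of the genes that fell gave no call: Ankrd1 and Ankrd23, of the same ankyrin repeat family as Ankrd2, stood at 0.38 and -0.13 on the log2 scale, with adjusted p of 0.576 and 0.629, and Csrp1 and Csrp2, of the family of Csrp3, at 0.21 and -0.02, with adjusted p of 0.438 and 0.961. Titin, Ttn, and telethonin, Tcap, stood at 0.03 and -0.08, neither of them called. Without WT mouse 1-13M, 5 of the 23 were called lower and 2 higher, beside 7.9% and 7.32% of all probe sets. The call of Cavin4 was lost in 6 and that of Synpo2l in 8 of the 10 fits that leave out 1 mouse, and those of Actn2 and Flnc in 0; Flnc was not called with the block for the first digit of the mouse number (adjusted p = 0.107) or by the methods' t-test (adjusted p = 0.0813).

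None of the 16 fast contractile genes tested was called, with a median of 0.06, although median centring called 2 of them higher. Median centring called 1599 of all tested probe sets higher, against 819 in the main fit. In the main fit 3.71% of all tested genes were called higher and 3.52% lower, the shares beside the counts below. Sarcomere genes used by both fibre types gave 2 calls of 16, both higher: Mybph, myosin binding protein H, by 2.07 (adjusted p = 0.00482) and Actc1, cardiac α-actin, which skeletal muscle also uses in development, by 1.90 (adjusted p = 0.00572). The call of Mybph was lost with the block for the first digit (1.67, adjusted p = 0.0671) and that of Actc1 with the methods' t-test (adjusted p = 0.0575). With median centring, and without WT mouse 1-13M, 4 were called higher. Without that mouse 7.32% of all probe sets were called higher, against 3.64% with it. Of 28 tested genes listed as regulators of the slow programme, among them calcineurin, NFAT, MEF2 and PGC-1 genes, 2 were called, both lower. These were Ppara, the fatty acid receptor PPARα, with -0.94 (adjusted p = 0.00339), and Ppargc1b, PGC-1β, with -0.91 (adjusted p = 0.0248). Without WT mouse 1-13M 6 were called lower, where 7.9% of all probe sets were. With median centring 1 was called lower, as when any of D257A mouse 2-25M and WT mice 1-12M, 2-3M and 2-32M was left out. Of all tested probe sets, median centring called 418 lower, against 843 in the main fit. PPAR and PGC-1 genes also regulate mitochondrial genes, and their part in the slow contractile genes was not tested. Ppargc1a, PGC-1α, stood at -0.24 (adjusted p = 0.492). The 10 tested regulators of the fast programme gave no call, with a median of 0.12.

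**Figure D5:**
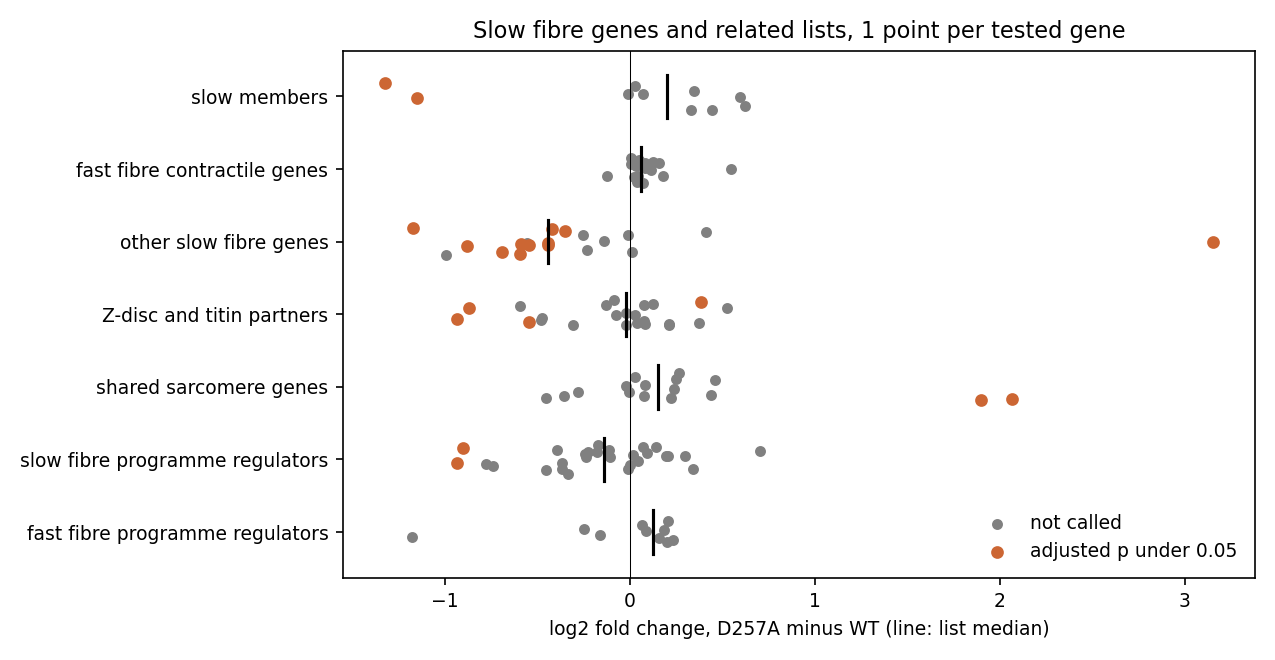
Log2 fold change, D257A minus WT, of each tested gene in the slow fibre members and 6 related lists, 1 point per gene by its brightest probe set; orange marks an adjusted p under 0.05 and the black line the list median. The members have 2 called genes, both lower, the other slow fibre genes 10 lower and 1 higher, and the fast contractile genes 0.

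Markers of other cells moved with genotype beside these results, and their part in them was not tested. Over all tested genes, 3.71% were called higher and 3.52% lower. Of 12 macrophage markers 5 were called higher, or 3 without D257A mouse 2-30M or WT mouse 1-12M, among them Lgals3 by 1.32 (adjusted p = 6.38e-04), and their summed signal lay between 10760 and 15681 in D257A mice and between 8136 and 10066 in WT mice. Of 10 fibroblast and matrix markers 5 were called lower, or 2 without WT mouse 1-12M and 3 when any of WT mice 2-3M, 2-32M and 3-18M was left out, with sums between 27326 and 32261 in D257A mice and between 26927 and 44934 in WT mice. Markers of skeletal muscle fibres summed to between 495108 and 522695 in D257A mice and to between 430478 in WT mouse 1-13M and 569846 in WT mice, with 1 of 10, myoglobin, called lower, a call lost in 8 of the 10 fits that leave out 1 mouse. Heart markers bear on the members most directly, since the heart uses most of these genes: Myh6, Nppa, Nppb, Myl7, Tnni3, Mybpc3 and Gja5 were all too dim to be tested, and of the other 3, Sln and Myl4 rose. Genes of developing or regenerating fibres gave 2 calls of 9 tested, both higher, Chrna1 by 1.28 (adjusted p = 4.31e-04) and Myl4, the embryonic and atrial light chain, by 1.15 (adjusted p = 0.00212); Myog stood at 0.33 (adjusted p = 0.460). Smooth muscle, Schwann and satellite cell markers gave no call among 7, 4 and 6 tested, and 1 adipocyte marker, Retn, and 1 endothelial marker, Vwf, were called higher, the former not in 6 of those fits.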

How the data were processed

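The authors deposited a linear intensity for every probe set of each array, computed with GCOS 1.3 per the labels (the algorithm is not stated). A target mean of 500 is stated, which the columns do not have (trimmed means 93.4 to 129, 2% left out at each end), so each array was scaled to it. The table holds 45101 probe sets, 64 of them controls; the 22518 with a mean log2 signal of at least 6.26, the brighter part of the other 45037, were tested with limma 3.58.1 (R 4.3.3; lmFit, eBayes with trend, no covariates; Benjamini-Hochberg over all tested). Symbols came from GEO's platform annotation. The brightest probe set that names a gene alone stands for it. Single values were compared by exact permutation tests (SciPy 1.17.1). Members, lists and tests were chosen with earlier results of these data known. Named were all member probe sets, the fast partners, up to 4 called genes of each list by adjusted p and the 10 genes most like Myh7; Atp2a2, Ankrd1, Ankrd23, Csrp1, Csrp2, Ttn, Tcap, Ppargc1a and Myog were added after their values were seen. Alternatives were no scaling, median centring, quantile normalization, no filter, the brightest 25%, no trend, an offset of 32, the methods' t-test, the mice numbered 2 alone, a block for the first digit of the mouse number, the mean of a gene's probe sets for the pairs, and each mouse left out; the covariation without mouse 1-13M was added after seeing the data. The limma step was tested on simulated data.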

Additional observations from a re-analysis of the deposited data

How the results depend on the processing

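No paired analysis was possible because the mice of the genotypes are separate animals and no pairing between them is stated. Ankrd2 was called under every alternative and Csrp3 under all but the block for the first digit of the mouse number (-1.22, adjusted p = 0.0779). Member probe sets called higher numbered 1, Tpm3, with median centring, with the brightest 25% of probe sets and with an offset of 32, and from 0 to 1 as each mouse was left out; under the block 1 was called lower. Over all probe sets, those called higher numbered 356 without scaling, 1599 with median centring, 541 without a filter, 515 without a trend, 540 with the methods' t-test and 291 with the block, and from 449 (without D257A mouse 2-17M) to 1648 (without WT mouse 1-13M); those called lower numbered 418 with median centring, 493 with the t-test and 271 with the block, and from 401 (without WT mouse 1-12M) to 1780 (without WT mouse 1-13M).

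Some uncalled members turned sign, most of them near 0, and Tnni1 from 0.34. Without scaling, the log2 fold change was -0.0448 for the brightest Myl3 probe set and -0.0043 for Tnnc1, and among the fast partners -0.0689 for Myh4, -0.0499 for Myl1, -0.0704 for Tnni2, -0.0422 for Tnnc2 and -0.0246 for Tpm1. With quantile normalization it was -0.0425 for Myl3, 0.0173 for the fourth brightest Tpm3 probe set, -0.0631 for Myh4, -0.0470 for Myl1, -0.0879 for Tnni2, -0.0127 for Tnnc2, -0.0092 for Tpm1 and -0.0039 for Myoz1. Median centring gave 0.0449 for the dimmest Myl3 probe set, 0.0863 for that Tpm3 probe set and 0.1242 for Myoz2. The mice numbered 2 alone gave -0.0139 for Myl3, -0.1017 for Tnni1 and -0.2447 for Tnnc1. The block must give the same fold changes, since only the mice numbered 2 hold both genotypes. As each mouse was left out, the values ran from -0.0517 to 0.0777 and from -0.2180 to 0.0515 for these 2 Myl3 probe sets, from -0.0803 to 0.2455 for Tnnc1, from -0.2733 to 0.1854 for that Tpm3 probe set, from -0.0882 to 0.0662 for Myoz2, from -0.0375 to 0.0491 for Myh4, from -0.0417 to 0.0683 for Myl1, from -0.0449 to 0.0610 for Tnni2 and from -0.0076 to 0.0903 for Tnnc2.

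Among the pairs, the mice numbered 2 alone gave -0.0051 for Myh7 with Myh2, -0.0426 for Myl2 with Mylpf, -0.0754 for Myl3 with Myl1, -0.1994 for Tnni1 with Tnni2 and -0.3940 for Tnnc1 with Tnnc2. The mean of a gene's probe sets gave -0.1195 for Myl3 with Myl1 and 0.0605 for Tpm3 with Tpm1 (exact p = 0.833). Quantile normalization gave 0.5706 for Tpm3 with Tpm1 (exact p = 0.0317). As each mouse was left out, the difference ran from 0.4558 to 0.7667 for Myh7 with Myh4, from -0.0609 to 0.0632 for Myl3 with Myl1, from 0.2658 to 0.5386 for Tnnt1 with Tnnt3, from -0.1459 to 0.2234 for Tnnc1 with Tnnc2 and from 0.4345 to 0.7586 for Tpm3 with Tpm1.

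Median centring called 5 other slow fibre genes lower, 1 regulator of the slow programme higher and 1 lower, and higher 2 fast contractile genes, 2 Z-disc partners, 4 shared sarcomere genes, 2 adipocyte and 2 endothelial markers (2 also with quantile normalization), and 0 skeletal markers lower. As each mouse was left out, those called lower ran from 6 to 12 for the other slow fibre genes, 1 to 6 for the slow regulators, 2 to 5 for the Z-disc partners, 2 to 7 for the fibroblast markers, 0 to 2 for smooth muscle, and 0 to 1 for the fast regulators, shared sarcomere, developmental, heart, skeletal and adipocyte lists. Those called higher ran from 0 to 1 for the fast contractile genes, 0 to 2 for the Z-disc partners and adipocyte markers, 2 to 4 for the shared sarcomere genes, 3 to 6 for the macrophage markers and 1 to 2 for the endothelial markers. The causes were not tested.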
